A study of Homo sapiens with 6 samples.

Results

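The interferon-stimulated genes described here were a list of 49 symbols, taken from the 28436 genes obtained when the deposited transcript counts were summed per gene. The list was made by name, from genes known to respond to interferon, and its rule used no measured value. All 49 had an entry, and 47 passed the filter on low counts and were tested. MX2 and XAF1 did not pass, with 0 to 8 and 0 to 11 estimated counts per library. The cells were A549, an epithelial line grown from a human lung adenocarcinoma, that had been infected with lentivirus and stably carried a short hairpin RNA. The shCBX8-1 and shCBX8-2 groups carried hairpins against CBX8, which reads methylated histone tails as part of a Polycomb repressive complex, and the third group carried a control hairpin. The first number in a knockdown title was read as the hairpin and the last as the replicate, and the labels do not define either. Each group had 2 libraries, and no labelled group was free of virus or hairpin. Whether the lines were clones, what the control hairpin targets, and whether replicates came from separate cultures are not stated, so p-values measure only the spread between these libraries, which may be technical. The series title is about repression of other genes by CBX8; the comparisons here ask whether the interferon-stimulated genes differed between each hairpin group and control, and between the hairpin groups.

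Interferons bind cell-surface receptors whose kinases, among them JAK1 and TYK2, phosphorylate STAT proteins. A complex that holds STAT2 and IRF9 then binds the interferon-stimulated response element in the promoters of target genes, and the gamma-activated site is the other element of the response. The products sense viral RNA, degrade it, block its translation or entry, and attach the ubiquitin-like protein ISG15 to other proteins. Airway epithelial cells make and answer type I and type III interferons, and many of these genes are also transcribed at a low level without added interferon.

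Libraries held 64197784 to 67169537 estimated counts. CBX8 (gene 57332, GRCh38.p14 chr17:79792132-79797077) had 7.79 and 7.70 CPM (counts scaled to library size) in shCBX8-1, 17.7 and 13.8 CPM in shCBX8-2, and 24.6 and 26.3 CPM in control. The hairpin libraries were all below the control libraries, with shCBX8-1 the lowest. The log2 fold change against control was -1.72 ± 0.16 (SE) in shCBX8-1 and -0.69 ± 0.15 in shCBX8-2 (edgeR quasi-likelihood test with Benjamini-Hochberg adjustment over all genes, adjusted p = 0.00704 and 0.0297). Both calls ended when either control library or either shCBX8-1 library was left out (adjusted p up to 0.145 and 0.169). The shCBX8-2 call of CBX8 also ended when only the shCBX8-2 and control libraries were fitted (adjusted p = 0.0679). CDKN2A and CDKN2B, which A549 cells have lost, were at 0 in all libraries, and the 8 epithelial and A549 markers were all present. Their levels were not all unchanged (edgeR adjusted p under 0.05). Of these 8, 2 fell in knockdown, 1 rose and 2 fell in shCBX8-1, and 3 rose and 1 fell in shCBX8-2. Of 11 leukocyte markers 9 had counts and CD3E was at 0, while the summed level of the list was 142 to 145 CPM in shCBX8-1, 111 to 118 CPM in shCBX8-2 and 95 to 98.7 CPM in control. Most of that sum was CD68, with means of 119, 94.8 and 82.8 CPM in shCBX8-1, shCBX8-2 and control. CD68 and CORO1A rose in shCBX8-1 and in knockdown, with CORO1A at means of 19.7, 14.8 and 7.71 CPM in shCBX8-1, shCBX8-2 and control, and CORO1A rose in shCBX8-2. CD14, at 2.46, 3.27 and 4.53 CPM in the same order, did not pass. The summed fibroblast markers were at 8.94 to 9.88, 5.05 to 5.56 and 12.1 to 14.3 CPM in the same order. Of the 5 fibroblast markers tested, 1 fell in knockdown and 1 in shCBX8-2. The part of these markers in the results below was not tested. Of 4 markers of plasmacytoid dendritic cells, a major source of interferon in blood, CLEC4C and LILRA4 were at 0, and TCF4 and IL3RA had counts, for a sum of 8.31 to 10.8 CPM in shCBX8-1, 5.23 to 7.5 CPM in shCBX8-2 and 9.04 to 9.11 CPM in control.

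The promoters of the members were searched for the elements through which interferon acts. RefSeq promoters of GRCh38.p14, 250 bases before to 50 bases after an annotated start, were matched by symbol for 41 of the 49 members. OAS2, OASL, IFIT2, IRF7, USP18, IFITM2, MX2 and GBP2 had no entry. The core of the response element, searched on both strands as GAAA, any 2 bases and GAAA again, was in 32 of 55 member promoters (58.2%), against 3.57% of all 35116 promoters. By gene it was in 28 of 41 members (68.3%), against 4.38% of 27305 genes. The gamma-activated site, searched as TTCNNNGAA, which reads the same on both strands, was in 11 of 55 member promoters (20.0%), against 7.66% of all promoters. A match is a stretch of letters, and was not measured as a bound site. The sequences below stand before the start of OAS1 and OAS3, which changed in the comparisons that follow, and of TRIM14, IFIT5, IFI44 and IFI44L, which differed in at least one of them or lay far apart between the hairpin groups. Capitals mark matches to the core, which begins and ends with TTTC where it lies on the other strand. OAS1 is shown in lower case throughout because it holds no match.
OAS3: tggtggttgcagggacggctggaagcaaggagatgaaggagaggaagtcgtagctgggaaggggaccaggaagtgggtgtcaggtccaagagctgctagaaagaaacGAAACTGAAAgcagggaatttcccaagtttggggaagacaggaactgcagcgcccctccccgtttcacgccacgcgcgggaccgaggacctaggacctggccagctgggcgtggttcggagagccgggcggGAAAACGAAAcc
OAS1: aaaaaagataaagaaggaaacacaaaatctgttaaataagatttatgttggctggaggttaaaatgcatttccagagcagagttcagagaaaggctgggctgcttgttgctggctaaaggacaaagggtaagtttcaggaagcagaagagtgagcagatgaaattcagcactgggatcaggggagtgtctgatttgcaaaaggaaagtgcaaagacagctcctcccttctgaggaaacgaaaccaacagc
TRIM14: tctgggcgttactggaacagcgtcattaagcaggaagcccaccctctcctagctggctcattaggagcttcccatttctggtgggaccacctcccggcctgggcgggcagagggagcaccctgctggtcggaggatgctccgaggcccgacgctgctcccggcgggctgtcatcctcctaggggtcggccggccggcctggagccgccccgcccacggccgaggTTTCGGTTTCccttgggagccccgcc
IFIT5: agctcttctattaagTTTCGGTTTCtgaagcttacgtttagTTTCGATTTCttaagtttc
IFI44: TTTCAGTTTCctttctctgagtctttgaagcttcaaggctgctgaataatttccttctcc
IFI44L: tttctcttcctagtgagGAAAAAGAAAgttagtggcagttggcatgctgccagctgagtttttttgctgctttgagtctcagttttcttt

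These stretches lie at chr12:112938224-112938473 on the plus strand for OAS3, at chr12:112906712-112906961 on the plus strand for OAS1, and at chr9:98119223-98119472 on the minus strand for TRIM14. IFIT5 is at chr10:89414508-89414567, IFI44, by the second of its annotated starts, at chr1:78649771-78649830, and IFI44L at chr1:78620358-78620447, all on the plus strand. The neighbours OAS3 and OAS1 differed in matches to the searched string in this window. OAS3 had the core 143 and 12 bases before its start, and OAS1, which rose in both hairpin groups, had no match to the core in the 250 bases shown, and a match to TTCNNNGAA 168 bases before its start. UBE2L6 and SAMD9L, which also changed, had no match in their promoters either. The search was for the exact string and can miss elements that depart from it. The OAS1 stretch holds gaaacgaaa near its end, with a shorter gap than the searched core. The lack of a match therefore does not show that OAS1 lacks a response element. TRIM14 had the core 26 bases before its start on the other strand, and IFIT5 had it 45, 19 and 4 bases before, also on the other strand, the last running across the start and so outside the stretch shown.

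**Figure D1:**
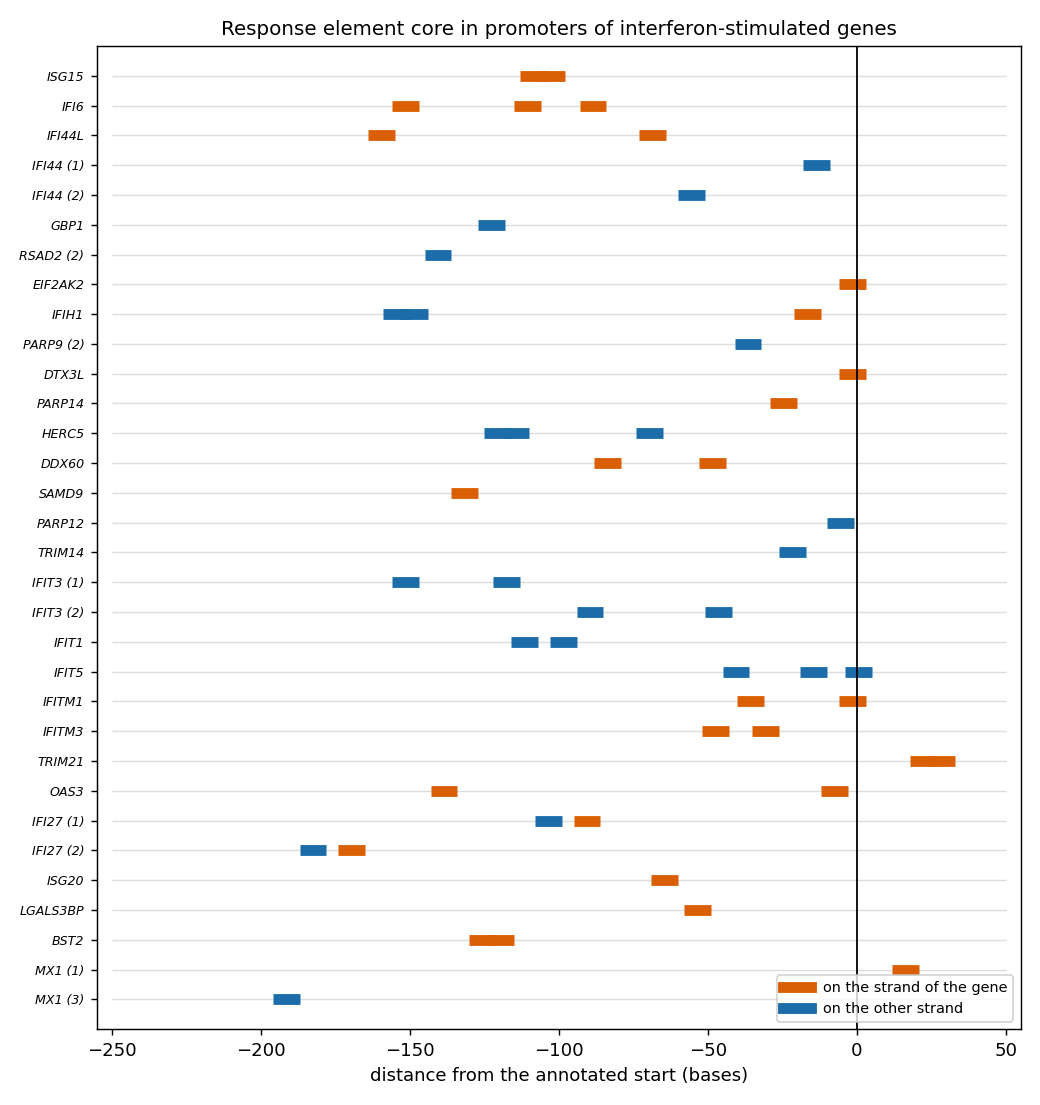
Matches to the core of the interferon-stimulated response element in the promoters of interferon-stimulated genes, by distance from the annotated start in bases (x axis); each row is 1 promoter with a match, with the number of the start in brackets where a gene has several. Orange bars are on the strand of the gene and blue bars on the other strand; of 55 member promoters, 32 had a match, and 3 of the 53 matches began after the start.

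Without added interferon the members ranged widely in level. Of the 47 tested, 2 averaged 100 CPM or more, 24 averaged 10 to 100 CPM, 18 averaged 1 to 10 CPM and 3 were under 1 CPM. Per kilobase of transcript, which could be given for 45 members, LGALS3BP, a secreted galectin-binding glycoprotein, was the highest, at 234 ± 6.27 CPM per kb in shCBX8-1, 199 ± 20.0 in shCBX8-2 and 191 ± 12.6 in control (SD, n = 2 each). IFITM2, OAS1, ADAR and UBE2L6 followed in control, at 40.9 ± 1.45, 36.2 ± 2.21, 32.0 ± 2.08 and 22.4 ± 0.000387 CPM per kb. A level per kb was given where at least 80% of a gene's counts lay on transcripts with a known length, and other counts were dropped. For ADAR 82.2% did, so its level per kb is an underestimate and its rank is not settled. The control libraries of IFITM2 lay above those of OAS1, while in shCBX8-2 OAS1 stood at 69.5 ± 3.71 and IFITM2 at 37.7 ± 0.0964 CPM per kb. RSAD2 and MX1, genes that interferon induces strongly, were among the lowest in control at 0.187 ± 0.0772 and 0.255 ± 0.0139 CPM per kb. In bulk RNA a lower level can come from fewer cells or from less RNA per cell, and these cannot be told apart.

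A minority of the members passed the test in any comparison, and those that did moved in several directions. In knockdown, the mean of both hairpin groups, against control, OAS1, OAS3 and TRIM14 rose and GBP2 fell (edgeR, adjusted p under 0.05). These were 4 of 47 members (8.51%), against 6.82% of all 17106 genes tested, of which 3.32% rose and 3.5% fell. In shCBX8-1 against control OAS1 and TRIM14 rose, 4.26% of the members against 2.47% of all genes (1.34% rose, 1.13% fell). In shCBX8-2 against control OAS1 and OAS3 rose and UBE2L6 fell, 6.38% of the members against 12.7% of all genes (6.03% rose, 6.66% fell). In shCBX8-2 against shCBX8-1 IFIT5, UBE2L6, IFITM2, SAMD9L and IFI44 fell, 10.6% of the members against 9.84% of all genes (4.05% rose, 5.79% fell). At an unadjusted edgeR p under 0.05 there were 10, 14, 12 and 19 of 47 members in these comparisons, against 23.7%, 17.3%, 29.3% and 26.4% of all genes. By this measure the share of members was above the background in shCBX8-1 and between the hairpins. It was below the background in knockdown and in shCBX8-2. Relative to all genes the adjusted share of members was lowest in shCBX8-2 against control, and in the other comparisons it lay within 2 percentage points of the background. The comparisons against control share the control libraries, and the comparison between the hairpins shares its libraries with both, so they are not independent.

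The members' log2 fold changes lay mostly above 0 in shCBX8-1 and mostly below 0 when shCBX8-2 was set against shCBX8-1. In shCBX8-1 against control 34 of 47 were above 0 (72.3%), against 48.6% of all genes, and the median was 0.19, against -0.01 for all genes. In shCBX8-2 against control 20 of 47 were above 0 (42.6%), against 45.6% of all genes, and both medians were -0.04. Between the hairpins 10 of 47 were above 0 (21.3%), against 48.5%, and the median was -0.26, against -0.01. By libraries, all shCBX8-1 libraries stood above all control libraries in 22 members (46.8%), against 28.4% of all genes, and below them in 5 (10.6%), against 29% of all genes. All shCBX8-2 libraries stood below all shCBX8-1 libraries in 25 members (53.2%), against 28% of all genes, and above them in 2, OAS1 and OAS3, against 26.2%. Between shCBX8-2 and control 9 members stood above (19.1%, against 26%) and 17 below (36.2%, against 31.5%). All 4 hairpin libraries stood above control in 6 members, namely OAS1, OAS3, TRIM14, IFITM3, SAMD9 and IFI27 (12.8%, against 13.2%), and below it in 2, GBP2 and ISG20 (4.26%, against 15.5%).

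The shCBX8-1 libraries differed from each other in these genes. Replicate 1 was higher than replicate 2 in 37 of 47 members (78.7%), against 50.1% of all genes, with a median difference between them of 0.192 log2 in size, against 0.128 for all genes. Without replicate 1, 25 members stood above control (background 40.5%), 13 below it (38.3%), and the median log2 fold change against control was 0.09. Without replicate 2, 34 stood above (background also 40.5%) and the median was 0.33. In shCBX8-2 against shCBX8-1 without replicate 1 of shCBX8-1, 27 members stood below (background 38.8%), 11 above (32.6%), the median was -0.24, and the members with a fold change above 0 numbered 16 in place of 10.

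Other libraries also moved these counts. Without control replicate 1, 11 members stood below control in shCBX8-1 (background 38.5%), and 9 had all 4 hairpin libraries below (24.7%). Without control replicate 2, 16 stood above control in shCBX8-2 (background 32.8%), and 13 had all 4 hairpin libraries above (19.9%). With all 4 hairpin libraries set against control, 6 stood below without shCBX8-1 replicate 1 (19.4%) and 5 without shCBX8-2 replicate 1 (18.9%). The 2 members above in shCBX8-2 against shCBX8-1 grew in number without shCBX8-1 replicate 2 or shCBX8-2 replicate 1. With fewer libraries to hold apart, such counts can grow in any set of genes. Those 2 members became 9 without shCBX8-2 replicate 2 (background 41%). In that last setting 19 stood above control in shCBX8-2 (38.8%). Every share given in these settings of the members that stood above in shCBX8-2 against shCBX8-1, or below in all hairpin libraries, was under its background.

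**Figure D2:**
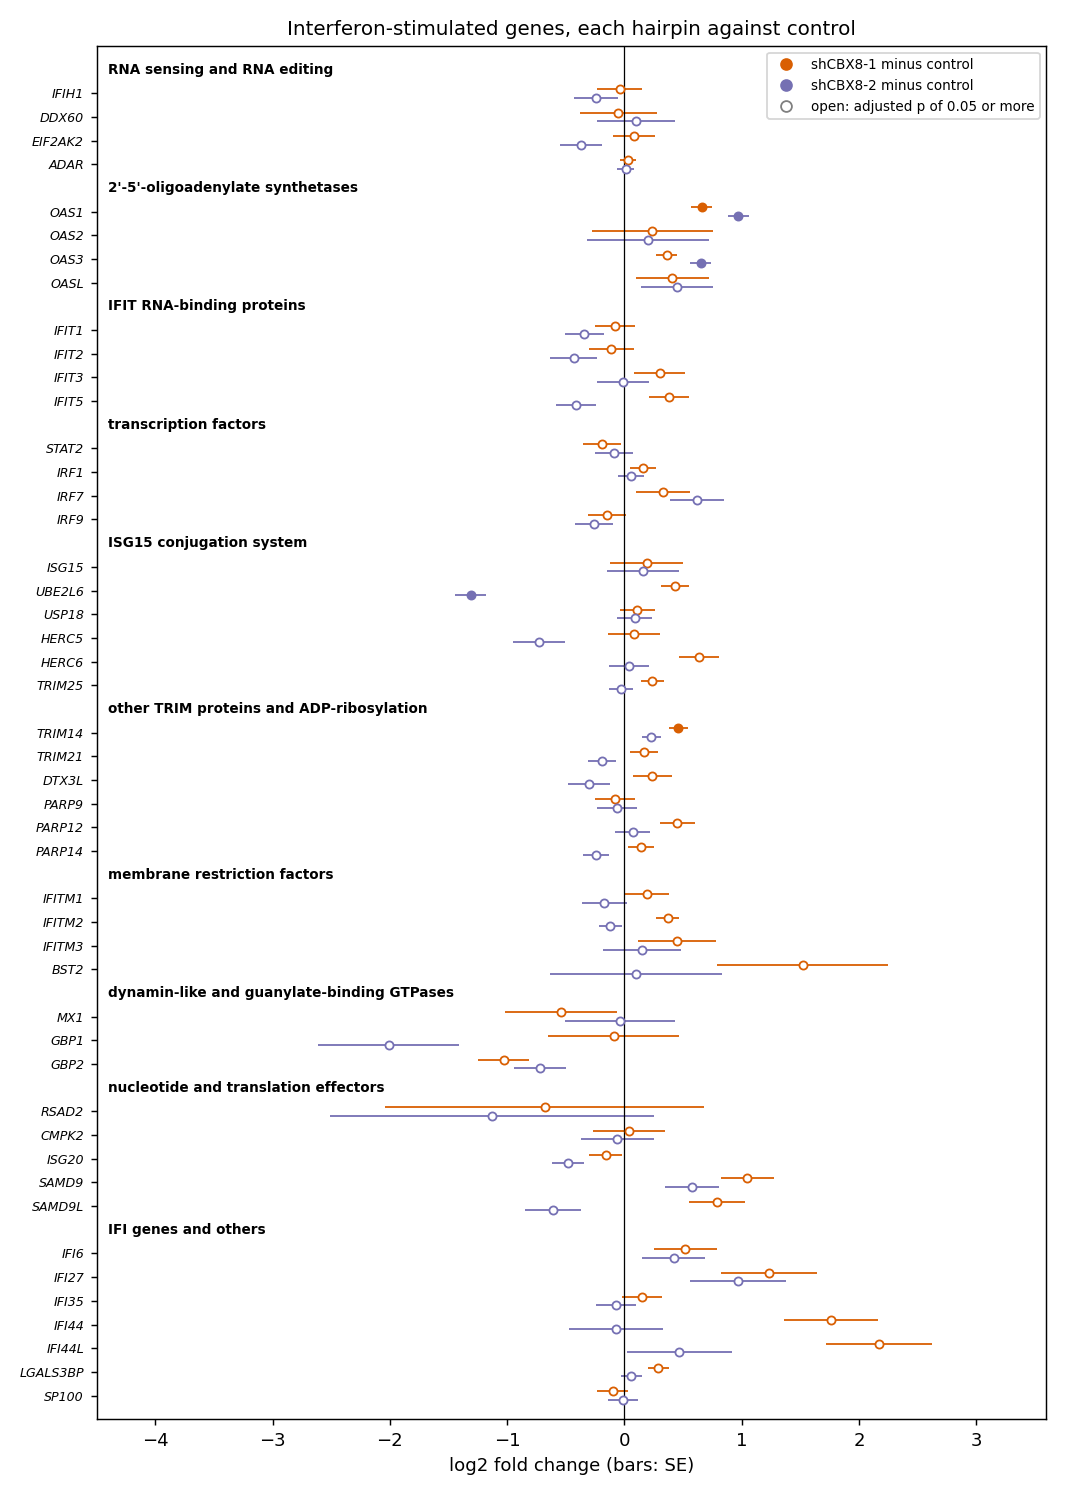
Log2 fold change against control (x axis; bars, SE) of the 47 tested interferon-stimulated genes, grouped by role, with shCBX8-1 above in orange and shCBX8-2 below in purple; filled points passed at an adjusted p under 0.05. Most orange points lie to the right of 0 (34 of 47), purple points lie on both sides (20 of 47 to the right), and the oligoadenylate synthetases lie to the right for both.

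The RNA sensors and the RNA editor did not pass in any comparison. This group held IFIH1 and DDX60, which sense viral RNA or assist in it, EIF2AK2, the kinase PKR that halts translation on double-stranded RNA, and ADAR, which edits adenosine to inosine. ADAR had 258 and 242 CPM in shCBX8-1, 249 and 243 CPM in shCBX8-2, and 247 and 241 CPM in control. The groups overlapped, with log2 fold changes of 0.03 ± 0.07 and 0.01 ± 0.07 (SE) for shCBX8-1 and shCBX8-2. EIF2AK2 had 97.1 and 91.8 CPM in shCBX8-1, 54.9 and 83.2 CPM in shCBX8-2, and 94.3 and 84.2 CPM in control. Both shCBX8-2 libraries were below the others, and far from each other. The log2 fold change of EIF2AK2 in shCBX8-2 against control was -0.37 ± 0.18 (edgeR adjusted p = 0.235).

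Among the oligoadenylate synthetases, which make the short oligoadenylates that activate RNase L, OAS1 and OAS3 rose, and all 4 members had values above 0 in both hairpin groups. OAS1 (gene 4938, chr12:112906962-112933219) had 106 and 101 CPM in shCBX8-1, 134 and 122 CPM in shCBX8-2, and 63.6 and 67.2 CPM in control. The 3 groups did not overlap, and shCBX8-2 was the highest. The log2 fold change of OAS1 was 0.66 ± 0.09 in shCBX8-1 (SE, edgeR adjusted p = 0.0198), 0.97 ± 0.09 in shCBX8-2 (adjusted p = 0.00238) and 0.81 ± 0.08 in knockdown (adjusted p = 0.00591). The difference between the hairpins, 0.30 ± 0.08, did not pass (adjusted p = 0.0717). The shCBX8-2 call held in each of 12 alternatives that set no minimum fold (highest adjusted p 0.0443), and OAS1 did not pass with a minimum of 2-fold, where 0 members rose, while the shCBX8-1 and knockdown calls ended without either control library or either shCBX8-1 library (adjusted p up to 0.209 and 0.117).

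OAS3 (gene 4940, chr12:112938474-112973251) had 101 and 90.5 CPM in shCBX8-1, 118 and 115 CPM in shCBX8-2, and 72.4 and 76.3 CPM in control. Its groups were apart in the same order as those of OAS1. OAS3 rose by 0.65 ± 0.09 log2 in shCBX8-2 (SE, edgeR adjusted p = 0.00666) and by 0.51 ± 0.08 in knockdown (adjusted p = 0.0161), and the shCBX8-1 value of 0.36 ± 0.09 did not pass (adjusted p = 0.0843). The shCBX8-2 call ended without either control library (adjusted p up to 0.0763), and the knockdown call without either control or either shCBX8-1 library (up to 0.169). OAS2, which sits next to OAS3 on chromosome 12, averaged 1.54 ± 1.08 CPM in shCBX8-1, 1.5 ± 0.0694 CPM in shCBX8-2 and 1.30 ± 0.321 CPM in control (SD, n = 2 each). OASL, an OAS-like protein without synthetase activity in human, averaged 3.25 ± 1.33, 3.33 ± 0.255 and 2.44 ± 0.0164 CPM in shCBX8-1, shCBX8-2 and control. Neither OAS2 nor OASL passed in a comparison.

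**Figure D3:**
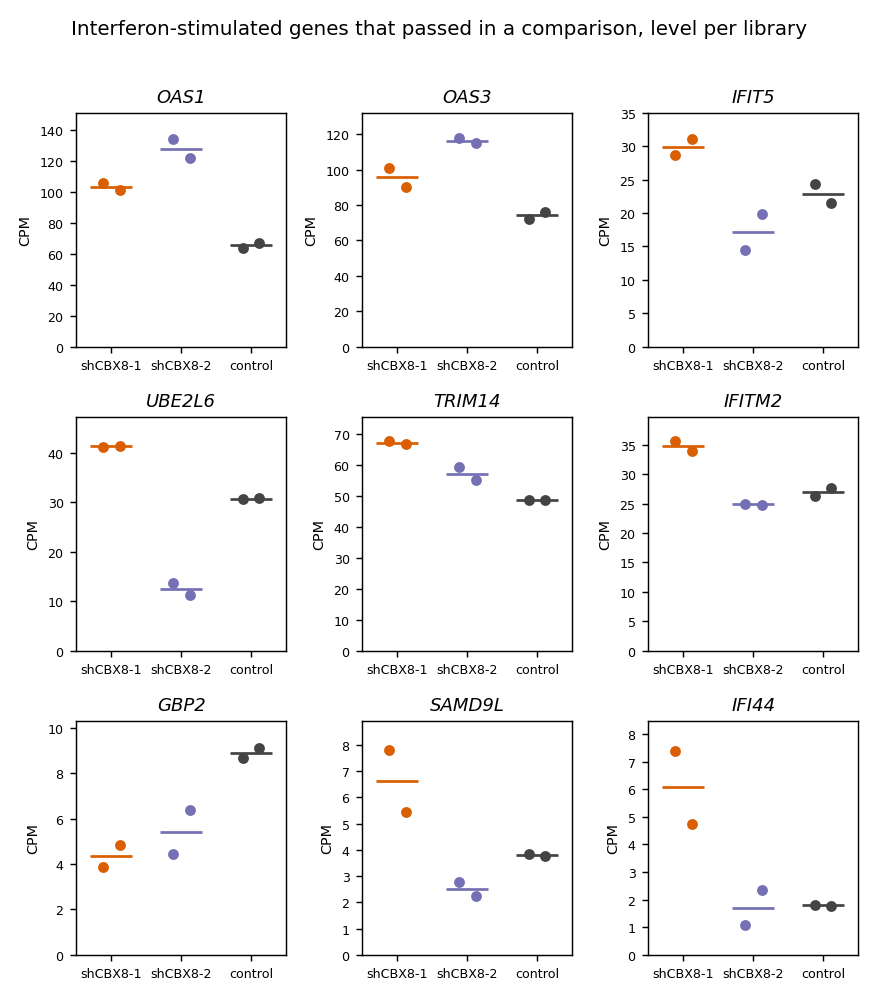
Level in CPM (y axis, from 0) of the 9 interferon-stimulated genes that passed in any comparison, in each library (points) with the group mean (line). OAS1 and OAS3 are highest in shCBX8-2, UBE2L6 lies at 41.2 and 41.4 CPM in shCBX8-1, 13.6 and 11.2 CPM in shCBX8-2 and 30.6 and 30.8 CPM in control, and GBP2 is lower than control in both hairpin groups.

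The IFIT proteins bind the ends of viral RNA and block its translation. None of the 4 passed against control, and IFIT5 passed between the hairpins. IFIT5 (gene 24138, chr10:89414568-89420997) had 28.6 and 31.0 CPM in shCBX8-1, 14.5 and 19.9 CPM in shCBX8-2, and 24.4 and 21.5 CPM in control. The shCBX8-1 libraries were above control and the shCBX8-2 libraries below it, with no overlap. In shCBX8-2 against shCBX8-1 IFIT5 fell by 0.79 ± 0.17 log2 (adjusted p = 0.0347, edgeR), and this call ended without either control or either shCBX8-1 library (adjusted p up to 0.223). The IFIT5 call also ended without the filter on low counts, with replicate number as a block, and when only the hairpin groups were fitted. IFIT2 had 6.59 and 7.53 CPM in shCBX8-1, 4.87 and 6.45 CPM in shCBX8-2, and 7.04 and 8.19 CPM in control. Its shCBX8-2 libraries were below all the others, with a log2 fold change against control of -0.43 ± 0.20 (adjusted p = 0.203). All 4 IFIT genes had values below 0 between the hairpins, from -0.79 to -0.26.

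The transcription factors of the response did not pass in any comparison. STAT2 and IRF9 are parts of the complex that binds the response element, and IRF1 and IRF7 are factors that interferon or virus induces. IRF1 had 36.2 and 35.1 CPM in shCBX8-1, 35.5 and 30.7 CPM in shCBX8-2, and 30.7 and 33.1 CPM in control, with log2 fold changes of 0.16 ± 0.11 and 0.06 ± 0.11 for shCBX8-1 and shCBX8-2. IRF7 had 9.78 and 6.50 CPM in shCBX8-1, 11.1 and 8.66 CPM in shCBX8-2, and 6.68 and 6.23 CPM in control. The shCBX8-2 libraries of IRF7 were above control, and 1 shCBX8-1 library lay among the control libraries. The shCBX8-2 value of IRF7 was 0.62 ± 0.23 (edgeR adjusted p = 0.132). IRF7 was counted on 6 entries, of which 3 were repeated accessions, as for copies at other loci, so its count may be split. STAT2 and IRF9 had means of 13.4 and 26.1 CPM in shCBX8-1, 14.3 and 24.2 CPM in shCBX8-2, and 15.2 and 28.9 CPM in control.

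In the ISG15 conjugation system 1 of the 6 members, UBE2L6, fell in shCBX8-2, and the other 5 did not pass in any comparison. UBE2L6 (gene 9246, chr11:57551662-57567935), the conjugating enzyme that carries ISG15, had 41.2 and 41.4 CPM in shCBX8-1, 13.6 and 11.2 CPM in shCBX8-2, and 30.6 and 30.8 CPM in control. Replicates lay close together and the 3 groups far apart, with shCBX8-1 above control and shCBX8-2 below. In shCBX8-2 against control UBE2L6 fell by 1.31 ± 0.13 log2 (SE, edgeR adjusted p = 0.00301). In shCBX8-1 its value was 0.43 ± 0.12 and did not pass (adjusted p = 0.141). Between the hairpins UBE2L6 fell by 1.74 ± 0.13 log2 in shCBX8-2 (adjusted p = 0.00126). Both calls held in each of 12 alternatives that set no minimum fold (highest adjusted p 0.0493 and 0.0354).

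ISG15 itself, the modifier, had means of 14.4 ± 4.58 CPM in shCBX8-1, 14.2 ± 5.05 CPM in shCBX8-2 and 12.7 ± 2.35 CPM in control (SD, n = 2 each), and did not pass. USP18, the protease that removes ISG15, averaged 20.2 ± 1.54, 19.9 ± 3.43 and 18.6 ± 0.755 CPM. HERC5, the main human ligase for ISG15, averaged 5.24 ± 0.959 CPM in shCBX8-1, 2.98 ± 0.331 CPM in shCBX8-2 and 4.95 ± 0.754 CPM in control, and its log2 fold change between the hairpins was -0.82 ± 0.22 (edgeR adjusted p = 0.0691). Its neighbour HERC6 averaged 17.6 ± 1.46, 11.7 ± 0.629 and 11.3 ± 2.15 CPM. TRIM25, a ubiquitin ligase, had 93.5 and 85.1 CPM in shCBX8-1, 77.9 and 70.3 CPM in shCBX8-2, and 80.6 and 70.6 CPM in control. Only its shCBX8-1 libraries were above control, with a log2 fold change of 0.24 ± 0.10 (adjusted p = 0.304).

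Of the other TRIM proteins and the ADP-ribosylation genes TRIM14 rose and the other 5 did not pass. TRIM14 (gene 9830, chr9:98035797-98119222), an adaptor of antiviral signalling at mitochondria, had 67.6 and 66.5 CPM in shCBX8-1, 59.3 and 54.9 CPM in shCBX8-2, and 48.7 and 48.6 CPM in control. All 4 hairpin libraries were above control, and here shCBX8-1 was the higher. TRIM14 rose by 0.46 ± 0.08 log2 in shCBX8-1 (SE, edgeR adjusted p = 0.0443) and by 0.35 ± 0.07 in knockdown (adjusted p = 0.0401), and its shCBX8-2 value of 0.23 ± 0.08 did not pass (adjusted p = 0.118). Both calls ended without either control or either shCBX8-1 library (adjusted p up to 0.292 and 0.276). TRIM21, a cytosolic antibody receptor, DTX3L, PARP9, PARP12 and PARP14 had log2 fold changes between -0.08 and 0.45 in shCBX8-1 and between -0.30 and 0.07 in shCBX8-2. DTX3L and PARP9 are neighbours on chromosome 3 whose annotated spans overlap at their start, and whether counting used strand is not stated.

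Among the membrane restriction factors, which hold virus at the cell or endosome membrane, IFITM2 passed between the hairpins. IFITM2 (gene 10581, chr11:307816-309395) had 35.6 and 33.9 CPM in shCBX8-1, 24.9 and 24.8 CPM in shCBX8-2, and 26.3 and 27.6 CPM in control. The shCBX8-1 libraries were above control, and the shCBX8-2 libraries a little below it. In shCBX8-2 against shCBX8-1 IFITM2 fell by 0.48 ± 0.10 log2 (edgeR adjusted p = 0.0318), a call that ended without either control or either shCBX8-1 library (adjusted p up to 0.198). The IFITM2 call also ended with replicate number as a block and when only the hairpin groups were fitted. IFITM1, IFITM2 and IFITM3 are closely similar neighbours on chromosome 11, so reads could be split among them. BST2, or tetherin, had 2.05 and 0.788 CPM in shCBX8-1, 0.378 and 0.684 CPM in shCBX8-2, and 0.241 and 0.747 CPM in control. One shCBX8-1 library stood far above the other 5, and the shCBX8-1 log2 fold change of 1.52 ± 0.73 did not pass (adjusted p = 0.35).

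The guanylate-binding proteins and MX1 are large GTPases that attack intracellular pathogens, and 1 of the 3 tested, GBP2, fell. GBP2 (gene 2634, chr1:89106132-89126114) had 3.88 and 4.84 CPM in shCBX8-1, 4.44 and 6.36 CPM in shCBX8-2, and 8.65 and 9.10 CPM in control. All 4 hairpin libraries were below both control libraries. GBP2 fell by 0.87 ± 0.19 log2 in knockdown (SE, edgeR adjusted p = 0.0411), with -1.03 ± 0.22 in shCBX8-1 (adjusted p = 0.0694) and -0.72 ± 0.22 in shCBX8-2 (adjusted p = 0.0806). The knockdown call ended without either control or either shCBX8-1 library (adjusted p up to 0.326). It also ended without the filter on low counts and without repeated accessions. GBP1, its neighbour and paralogue, had 2.07 and 1.44 CPM in shCBX8-1, 0.189 and 0.731 CPM in shCBX8-2, and 1.99 and 1.73 CPM in control. Both shCBX8-2 libraries were low, and the shCBX8-2 log2 fold change of -2.01 ± 0.60 did not pass (adjusted p = 0.073). MX1, which traps viral nucleocapsids, averaged 0.610 ± 0.0598, 0.861 ± 0.387 and 0.886 ± 0.0481 CPM in shCBX8-1, shCBX8-2 and control.

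Of the nucleotide and translation effectors SAMD9L fell between the hairpins. SAMD9 and SAMD9L are adjacent paralogues on chromosome 7 that repress translation. SAMD9L (gene 219285, chr7:93130056-93148385) had 7.82 and 5.43 CPM in shCBX8-1, 2.77 and 2.23 CPM in shCBX8-2, and 3.86 and 3.78 CPM in control. The groups did not overlap, with shCBX8-1 above control and shCBX8-2 below. In shCBX8-2 against shCBX8-1 SAMD9L fell by 1.41 ± 0.24 log2 (SE, edgeR adjusted p = 0.0181), and the call ended without either control or either shCBX8-1 library (adjusted p up to 0.12). The SAMD9L call also ended when only the hairpin groups were fitted. SAMD9 had 23.6 and 23.2 CPM in shCBX8-1, 14 and 19.7 CPM in shCBX8-2, and 13.5 and 9.07 CPM in control. Here both hairpin groups were above control, and the shCBX8-1 log2 fold change was 1.05 ± 0.23 (adjusted p = 0.0731). RSAD2, or viperin, which makes a chain-terminating nucleotide, had 0.276 and 0.546 CPM in shCBX8-1, 0.599 and 0 CPM in shCBX8-2, and 0.467 and 0.852 CPM in control. Its libraries overlapped. The exonuclease ISG20 averaged 17.0 ± 1.75, 13.7 ± 1.42 and 19.1 ± 0.357 CPM in shCBX8-1, shCBX8-2 and control, and CMPK2, a mitochondrial nucleotide kinase, 2.5 ± 0.562, 2.34 ± 0.652 and 2.43 ± 0.367 CPM.

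IFI44L and IFI44, whose roles are little known, had the largest positive fold changes of the members in shCBX8-1 against control, at low levels. IFI44L had 3.10 and 2.71 CPM in shCBX8-1, 0.678 and 1.11 CPM in shCBX8-2, and 0.422 and 0.867 CPM in control. Both shCBX8-1 libraries were above all the others, and shCBX8-2 overlapped control. The log2 fold change of IFI44L in shCBX8-1 was 2.17 ± 0.45 and did not pass (edgeR adjusted p = 0.0618). Its neighbour and paralogue IFI44 (gene 10561, chr1:78649789-78664078) had 7.39 and 4.76 CPM in shCBX8-1, 1.07 and 2.34 CPM in shCBX8-2, and 1.82 and 1.76 CPM in control. The shCBX8-1 libraries were again the highest. Between the hairpins IFI44 fell by 1.83 ± 0.40 log2 in shCBX8-2 (SE, adjusted p = 0.0367), a call that ended without either control or either shCBX8-1 library (adjusted p up to 0.239). The IFI44 call also ended without the filter on low counts, with replicate number as a block, and when only the hairpin groups were fitted. LGALS3BP had 574 and 553 CPM in shCBX8-1, 511 and 443 CPM in shCBX8-2, and 438 and 481 CPM in control. Its shCBX8-1 libraries were above all the others, by 0.29 ± 0.09 log2 against control (adjusted p = 0.156). IFI27, counted partly through repeated accessions, averaged 2.08 ± 0.685, 1.73 ± 0.245 and 0.884 ± 0.355 CPM in shCBX8-1, shCBX8-2 and control, and IFI6 averaged 25.3 ± 7.44, 23.6 ± 0.0298 and 17.7 ± 5.73 CPM. Neither passed, nor did IFI35 or SP100, a nuclear body protein.

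How many members passed in shCBX8-1 depended on which libraries were fitted. When only the shCBX8-1 and control libraries were fitted, 12 members rose and 1 fell, 27.7% of 47, against 14.4% of 16783 genes (7.93% rose, 6.52% fell). Beside OAS1 and TRIM14, those that rose then were OAS3, IFIT5, UBE2L6, HERC6, IFITM2, SAMD9, SAMD9L, IFI44, IFI44L and LGALS3BP, and GBP2 fell. In that fit IFI44 rose by 1.76 ± 0.26 log2 (edgeR adjusted p = 0.00348) and IFI44L by 2.17 ± 0.40 (adjusted p = 0.00899), with 2 residual degrees of freedom in place of 3. The fold changes differed by at most 0.01 from those given above. The spread between replicates was wider in shCBX8-2, with a median difference of 0.24 log2 over all genes, against 0.128 in shCBX8-1 and 0.129 in control. The part of this spread in the number that passed was not tested.

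**Figure D4:**
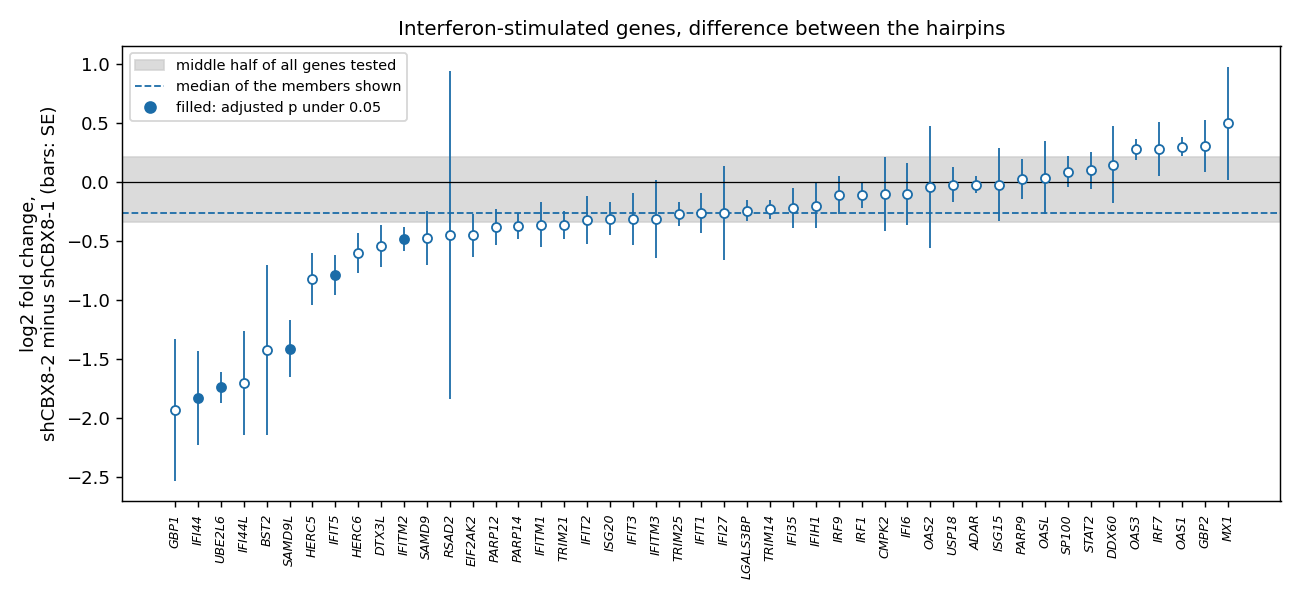
Log2 fold change of shCBX8-2 minus shCBX8-1 (y axis; bars, SE) for the 47 tested interferon-stimulated genes in rising order; filled points passed at an adjusted p under 0.05, the dashed line is the median of the members and the grey band holds the middle 50% of all genes tested. The median of the members is -0.26, against -0.01 for all genes, and 10 of 47 points lie above 0 (21.3%, against 48.5% of all genes).

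A list of 43 other genes of interferon signalling was read from the same fit, and 34 were tested. In knockdown 1 rose and 5 fell, in shCBX8-1 1 rose, in shCBX8-2 1 rose and 5 fell, and between the hairpins 6 fell. As a share of the 34 these were 17.6%, 2.94%, 17.6% and 17.6%, against 6.82%, 2.47%, 12.7% and 9.84% of all genes. Of 9 interferon ligand genes IFNE alone was tested, with 1.44 and 1.49 CPM in shCBX8-1, 0.930 and 0.954 CPM in shCBX8-2, and 1.39 and 1.54 CPM in control. IFNB1, IFNK, IFNL3 and IFNG had no counts in any library. IFNA1, IFNA2, IFNL1 and IFNL2 had 0 to 8 counts per library.

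Among receptors and kinases JAK1 and IL10RB were lower in shCBX8-2, and TYK2 was higher. JAK1, the kinase shared by type I, II and III interferon receptors, had 209 and 215 CPM in shCBX8-1, 109 and 112 CPM in shCBX8-2, and 225 and 209 CPM in control. The shCBX8-2 libraries stood far below the others, and shCBX8-1 overlapped control. JAK1 fell by 0.98 ± 0.07 log2 in shCBX8-2 against control (SE, edgeR adjusted p = 0.00168) and by 0.94 ± 0.07 against shCBX8-1 (adjusted p = 0.00136), in each of 12 alternatives that set no minimum fold (highest adjusted p 0.0341 and 0.0382). IL10RB, a subunit of the type III interferon receptor, had 28.1 and 28.9 CPM in shCBX8-1, 18.9 and 18.4 CPM in shCBX8-2, and 25.2 and 27.7 CPM in control. It fell by 0.51 ± 0.11 log2 in shCBX8-2 against control (adjusted p = 0.0294) and by 0.61 ± 0.11 against shCBX8-1 (adjusted p = 0.0211), calls that ended without either control or either shCBX8-1 library (up to 0.19 and 0.142). Both IL10RB calls also ended when only the libraries compared were fitted, and the call against control with replicate number as a block. TYK2, the partner kinase of JAK1, had 54.2 and 59.2 CPM in shCBX8-1, 57.8 and 52.9 CPM in shCBX8-2, and 42.2 and 43.2 CPM in control. All hairpin libraries were above control. It rose by 0.39 ± 0.08 log2 in knockdown (adjusted p = 0.0399) and by 0.37 ± 0.09 in shCBX8-2 (adjusted p = 0.0455), calls that ended without the same libraries (up to 0.266 and 0.222). Both TYK2 calls also ended with replicate number as a block. The shCBX8-2 call of TYK2 ended too without the filter on low counts and in a fit of only shCBX8-2 and control. IFNAR1, IFNAR2, IFNGR1, IFNGR2, IFNLR1 and JAK2 did not pass in any comparison.

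Of the sensors and their partners IFI16 and STING1 differed between the hairpins and IRF5 fell in knockdown. IFI16, a nuclear DNA sensor, had 21.0 and 21.0 CPM in shCBX8-1, 4.98 and 4.90 CPM in shCBX8-2, and 13.7 and 14 CPM in control. The groups were far apart, with shCBX8-1 above control and shCBX8-2 below. IFI16 fell by 1.49 ± 0.12 log2 in shCBX8-2 against control (SE, edgeR adjusted p = 0.00185) and by 2.09 ± 0.12 against shCBX8-1 (adjusted p = 0.000887), in each of 12 alternatives that set no minimum fold (highest adjusted p 0.0407 and 0.0326), while its shCBX8-1 value of 0.60 ± 0.12 did not pass (adjusted p = 0.0511). STING1, the adaptor downstream of DNA sensing, had 17.9 and 20.5 CPM in shCBX8-1, 10.8 and 10.5 CPM in shCBX8-2, and 9.53 and 10.7 CPM in control. Only the shCBX8-1 libraries were apart. STING1 rose by 0.92 ± 0.14 log2 in shCBX8-1 against control (adjusted p = 0.0271), and in shCBX8-2 against shCBX8-1 it fell by 0.85 ± 0.14 (adjusted p = 0.0142). The first call ended without either control or either shCBX8-1 library (up to 0.222) and the other without either shCBX8-1 library (up to 0.122). CGAS, the sensor upstream of STING1, did not pass. IRF5, a factor of Toll-like receptor signalling, had 12.7 and 12.5 CPM in shCBX8-1, 15.2 and 12.4 CPM in shCBX8-2, and 19.0 and 21.2 CPM in control. All hairpin libraries were below control, and IRF5 fell by 0.61 ± 0.12 log2 in knockdown (adjusted p = 0.0344), a call that ended without either control or either shCBX8-1 library (up to 0.288).

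SOCS3, an inhibitor of JAK kinases, and STAT3, whose signalling induces it, were lower in shCBX8-2. SOCS3 had 23.8 and 23.7 CPM in shCBX8-1, 9.87 and 9.84 CPM in shCBX8-2, and 22.6 and 20.9 CPM in control. SOCS3 fell by 1.14 ± 0.11 log2 in shCBX8-2 against control (SE, edgeR adjusted p = 0.00349; 0.0521 without control replicate 1) and by 1.27 ± 0.11 against shCBX8-1 (adjusted p = 0.00212). STAT3 had 258 and 242 CPM in shCBX8-1, 186 and 173 CPM in shCBX8-2, and 267 and 251 CPM in control. Both genes had their shCBX8-2 libraries below all the others, with shCBX8-1 close to control. STAT3 fell by 0.53 ± 0.08 log2 in shCBX8-2 against control (adjusted p = 0.00821) and by 0.48 ± 0.08 against shCBX8-1 (adjusted p = 0.0142); the first call ended without either control library (up to 0.0686) and the other without either shCBX8-1 library (up to 0.0984). In knockdown JAK1 fell by 0.50 ± 0.06, STAT3 by 0.29 ± 0.07, IFI16 by 0.44 ± 0.10 and SOCS3 by 0.51 ± 0.10 (adjusted p = 0.0102, 0.0474, 0.048 and 0.0289), and all 4 calls ended without either control or either shCBX8-1 library (up to 0.139, 0.262, 0.313 and 0.238). The STAT3 and IFI16 calls in knockdown also ended with DESeq2 size factors (adjusted p = 0.0555 and 0.0521), and that of IFI16 without the filter on low counts (adjusted p = 0.0564). With the 4 knockdown libraries as 1 group the IFI16 value was -0.09.

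**Figure D5:**
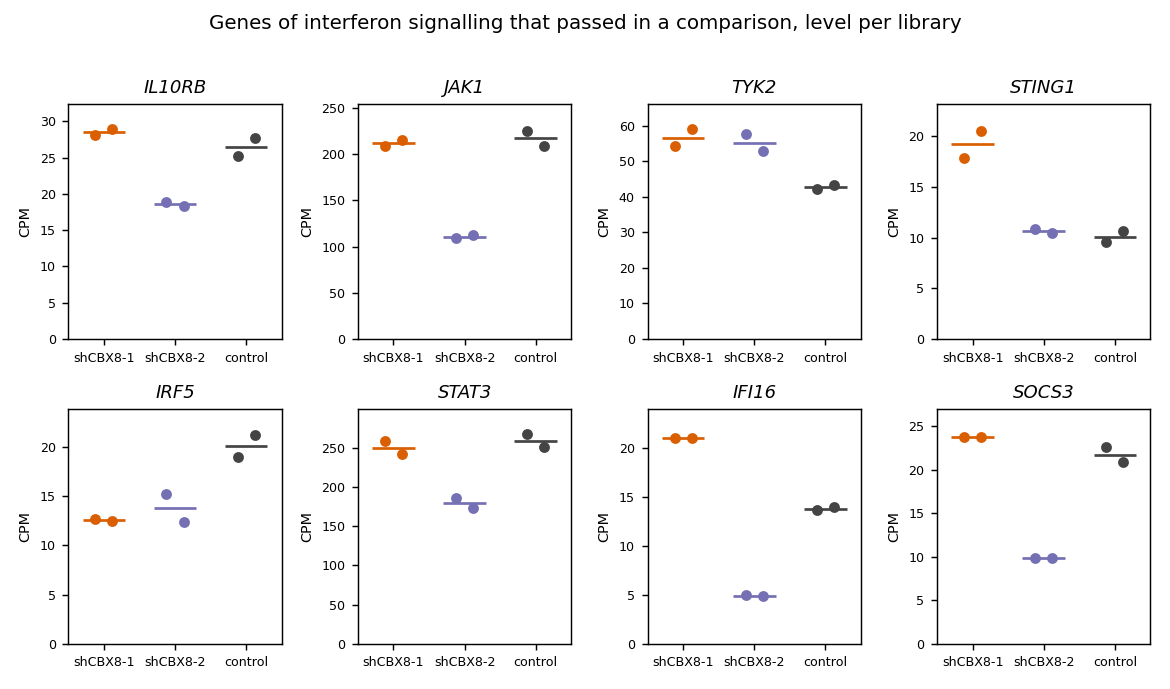
Level in CPM (y axis, from 0) of the 8 genes of interferon signalling outside the list that passed in any comparison, in each library (points) with the group mean (line). JAK1, STAT3, IFI16, SOCS3 and IL10RB are lowest in shCBX8-2, STING1 is highest in shCBX8-1, TYK2 is above control and IRF5 below control in both hairpin groups.

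At the level of single transcripts fewer differences could be called. Of 40859 transcripts tested, edgeR called 0 in each comparison against control and 1 between the hairpins, and 0 of the 93 member transcripts. At an unadjusted p under 0.05 there were 8, 10, 7 and 11 of the 93 in knockdown, shCBX8-1, shCBX8-2 and between the hairpins, against 8.58%, 6.82%, 9.91% and 9.4% of all transcripts, and DESeq2 was not run on transcripts. OAS1 was counted on 4 transcripts, of which NM_001032409 and NM_002534 held most counts. NM_001032409 had 56.7 and 52.4 CPM in shCBX8-1, 45.9 and 66.2 CPM in shCBX8-2, and 22.1 and 42.4 CPM in control. Its hairpin libraries were all above control, and its hairpin groups overlapped each other. NM_002534 had 30.5 and 30.7 CPM in shCBX8-1, 46.0 and 36.6 CPM in shCBX8-2, and 18.1 and 16.2 CPM in control, in the same order as the gene. NM_016816 had 12.2 and 12.1 CPM in shCBX8-1, 31.8 and 10.6 CPM in shCBX8-2, and 20.6 and 7 CPM in control, with overlapping groups. For SAMD9 the estimate moved from 1 transcript to another between replicates. Its transcript NM_001193307 had 23.6 and 0 CPM in shCBX8-1, while NM_017654 had 0 and 23.2 CPM there, so that only the sum per gene was similar.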

How the data were processed

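RNA-seq libraries of A549 cells were analysed, 2 per hairpin group. The authors deposited 1 table of estimated counts, by RefSeq transcript and library. Per the submitters' processing notes HISAT2 2.2.1, StringTie 2.2.1, DESeq2 1.34.0 and hg38 were used; no source used here gives the counting step, its strand setting or the annotation. Since every value was whole, rounding changed nothing. Of 84787 transcripts, 83963 were matched by RefSeq (GRCh38.p14), 357 by GENCODE v29, and 467 not; these held 0.0632 to 0.0778% of the counts. Repeated accessions, 12094 entries, held 2.89 to 3.17%. Counts were summed per gene.

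The tests used edgeR 4.0.16 in R 4.3.3: filterByExpr (minimum count 10, minimum total 15), scaling by the trimmed mean of M values, and a quasi-likelihood fit of 3 groups on all 6 libraries (3 residual degrees of freedom, common dispersion 0.0365). Two-sided p-values were adjusted over 17106 genes by the Benjamini-Hochberg method, with a threshold of 0.05. Levels are CPM on scaled library sizes, and per kilobase for comparisons between genes. The members and lists were chosen with earlier results of these data known. Members given with every library's value were those that passed in a comparison and, in each role group, the highest in level and the largest in fold change; IFI44L, SAMD9 and others come from that rule, and other pathway genes are named where they passed. Genes given otherwise were chosen after their values were seen. Same-numbered libraries did not deviate together (correlations -0.006, -0.016 and 0.021 over 17106 genes), so no block was used. Alternatives included DESeq2 1.42.0. Some genes of the lists are not reported here.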

Additional observations from a re-analysis of the deposited data

Results flagged for a closer look

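The effects of the hairpins against the same control differed by a direct test of shCBX8-2 against shCBX8-1 (edgeR, adjusted p under 0.05) for 12 of the genes examined. Among the interferon-stimulated genes the log2 difference was -0.79 for IFIT5, -1.74 for UBE2L6, -0.48 for IFITM2, -1.41 for SAMD9L and -1.83 for IFI44. Among the signalling genes it was -0.61 for IL10RB, -0.94 for JAK1, -0.85 for STING1, -0.48 for STAT3, -2.09 for IFI16 and -1.27 for SOCS3. For the targeted gene, CBX8, it was 1.02, that is, CBX8 itself was higher in shCBX8-2 than in shCBX8-1. The CBX8 difference ranged from 0.84 to 1.2 over the alternatives, and its call ended without either shCBX8-1 library. The calls of UBE2L6, JAK1, IFI16 and SOCS3 held in each of 12 alternatives that set no minimum fold. Those of the other genes listed here each ended in some of them. Other results were not screened for outlying libraries, since each group had 2.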

How the results depend on the processing

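Counts of members that passed depended on the test and on single libraries. Of 1440 alternative fold changes 1200 kept their side of the threshold, 143 lost it and 97 gained it, and 0 turned round where called. Most of the 1440 belong to values that were not called, and only a called value could lose its side. These totals therefore do not measure how stable the calls were. With the DESeq2 Wald test 7 of 47 members passed in knockdown, 11 in shCBX8-1, 7 in shCBX8-2 and 13 between the hairpins. With edgeR these were 4, 2, 3 and 5. Of all genes 14.3, 8.66, 20.8 and 17.3% passed with the DESeq2 Wald test. Leaving out 1 library at a time gave 0 to 10 members in knockdown, 0 to 13 in shCBX8-1, 2 to 13 in shCBX8-2 and 1 to 15 between the hairpins, with the low values without a control or shCBX8-1 library (for shCBX8-2, a control library) and the high ones without a shCBX8-2 library. The share of all genes that passed fell and rose with the same libraries left out, in each comparison. These swings were therefore not confined to the members. A group left with 1 library was assumed to vary like the others. A minimum of 2-fold, applied to counts of members and not to single genes, left 0, 0, 1 and 3 members. The shares of all genes were then 1.54, 0.91 and 3.65% in knockdown, shCBX8-1 and shCBX8-2. The 4 knockdown libraries as 1 group gave 0 in knockdown (27 of all genes), and ended the knockdown calls of the signalling genes and of CBX8. A fit of only the libraries compared gave 13 in shCBX8-1 and 1 between the hairpins; for knockdown it is the same fit. Without the filter 3 passed between the hairpins, against 6.49% of all genes. With replicate number as a block, which the data do not support as a pairing, 1 member passed in shCBX8-1 and 2 between the hairpins. The block counts were 3 in knockdown and 3 in shCBX8-2. Of all genes, 1.04, 4.12 and 9.89% passed with the block in shCBX8-1, knockdown and shCBX8-2. DESeq2 size factors and leaving out repeated accessions changed none of the edgeR counts of 4, 2, 3 and 5. Size factors ended the knockdown calls of STAT3 and IFI16. Without repeated accessions GBP2 no longer passed in knockdown and UBE2L6 did, with a log2 fold change of -0.44 (edgeR adjusted p = 0.0489). The counts of members apart from a group or above 0 and the signalling genes were recomputed under alternatives chosen after seeing the data. The cause of these shifts was not tested. With 2 libraries per group, the low-level genes RSAD2 and BST2 had standard errors of 0.73 to 1.38 log2 in each hairpin group against control.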
